A study of Mus musculus with 2 samples.

Results

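Immediate early genes and heat shock genes were followed as a set of 42 of the 32285 features measured by single-cell RNA-Seq in the mouse mitral valve. The set was chosen by symbol and holds 29 immediate early genes and 13 heat shock genes. Cells came from WT mice (Fbn1+/+ littermates) and from mgR mice, homozygous carriers of a hypomorphic allele of Fbn1, the gene of the microfibril protein fibrillin-1. The allele is carried by every cell of the animal, both groups were on the C57BL/6J background, and the mice were 12 weeks old. There was 1 library per genotype, and the labels do not say how many animals each library pooled. Leaflets were digested with collagenase and elastase for 60 min at 37 °C, and viable cells were sorted before capture. With 1 library per genotype no test between genotypes was possible and no P value is given. All intervals below cover counting error only, at 95%, and differences between animals, digestions and libraries are not in them.

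Immediate early genes are transcribed within minutes of a growth factor, cytokine, mechanical or stress signal, without new protein synthesis. Most of their products are transcription factors (FOS and JUN proteins of the AP-1 complex, EGR and NR4A proteins) or brakes on the same signals (DUSP phosphatases, ZFP36, NFKBIA). Heat shock genes encode chaperones that fold or hold client proteins, and the inducible ones are switched on by heat shock factor 1 when unfolded protein accumulates. Both groups are known to respond to tissue digestion at body temperature, so their level in isolated cells holds an unknown part from the isolation itself, and this part was not tested.

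After the filters of the study (200 to 5000 genes and at most 10% mitochondrial UMIs per cell), 875 WT and 3438 mgR cells were kept, with a median of 5033 and 7370 unique molecular identifiers (UMIs) per cell. Cells were placed in 4 classes by UMIs of marker genes, and a cell had to meet the criterion of 1 class alone. The WT and mgR libraries gave 322 and 877 fibroblast-like cells (Col1a2, Col3a1, Dcn), 224 and 1531 macrophage-like cells (C1qa, C1qb, C1qc), 29 and 147 endothelium-like cells (Pecam1, Cdh5) and 90 and 148 T cell-like cells (Cd3e, Cd3d, Cd3g). All 8 markers listed for a class were detected in that class in both libraries. The lists include the genes of the criterion, and detection needs only 1 UMI over the class, so this does not test the class names. All 8 macrophage markers were also detected in mgR fibroblast-like cells, where 8.21% of cells had at least 2 UMIs over them. The endothelium criterion was met by 60 WT and 478 mgR cells, of which the 29 and 147 met it alone. Endothelium-like cells also held fibroblast transcripts, since 65.5% of the WT cells and 79.6% of the mgR cells had at least 2 UMIs over the 8 fibroblast markers. Haemoglobin UMIs were found in every class, with at least 2 in 27.6% to 37.6% of WT cells and in 6.76% to 12.4% of mgR cells, and their part in the results was not tested. Fbn1 itself was read at 171 CPM in WT and 136 CPM in mgR fibroblast-like cells (ratio 0.795, interval 0.694 to 0.912), where CPM is UMIs per 1000000 UMIs of the class. Each library held cells with Xist UMIs and no Y-linked UMIs as well as cells with Y-linked UMIs and no Xist, whereas the study's methods describe comparisons in male mice only. Xist-only and Y-only cells numbered 246 and 337 in WT and 2091 and 724 in mgR. Because the mix differed between the libraries, results for members are also given within each kind of cell. The libraries shared 2 cell barcodes.

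The 29 immediate early genes took a similar share of all transcripts in fibroblast-like and endothelium-like cells, a larger share in macrophage-like cells and a smaller share in T cell-like cells. Their summed level was 12257 CPM in WT and 13122 CPM in mgR fibroblast-like cells. In macrophage-like cells it was 18156 and 15148 CPM, in endothelium-like cells 11396 and 12927 CPM, and in T cell-like cells 9179 and 9327 CPM. The order of the classes at both ends, macrophage-like highest and T cell-like lowest, was the same in both libraries. Fibroblast-like and endothelium-like cells lay close together in both. The transcripts were counted at their 3-prime ends, 1 UMI per molecule, so levels were not divided by gene length.

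The classes drew on different members. Among the FOS genes, Fos stood at 1254 CPM in WT and 1320 CPM in mgR fibroblast-like cells and at 1208 and 1783 CPM in endothelium-like cells. It was lower in macrophage-like cells, at 512 and 370 CPM, and in T cell-like cells, at 187 and 229 CPM. Jun, its main partner in AP-1, was highest in endothelium-like cells (1437 and 1815 CPM), then fibroblast-like cells (1141 and 1044 CPM), and lowest in T cell-like cells (72.2 and 76.2 CPM). Fosl2, a more slowly induced FOS-related protein, ran the other way and was highest in T cell-like cells (501 CPM in WT and 396 CPM in mgR, against 140 and 112 CPM in fibroblast-like cells). Junb, an AP-1 subunit that opposes Jun at many promoters, was the most abundant immediate early gene of T cell-like cells, at 2807 and 2457 CPM, and made up 30.6% and 26.3% of their summed immediate early UMIs. Jund, the most constitutive of the JUN genes, was the most even member of the AP-1 group, between 966 and 1702 CPM in all 8 combinations of class and library.

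The zinc finger factor Egr1 was highest in fibroblast-like cells (469 CPM in WT and 682 CPM in mgR) and lowest in T cell-like cells (14.9 and 22.3 CPM). Egr2, a macrophage and Schwann cell regulator, stayed at or under 55.8 CPM in every class, and Egr3 at or under 53.7 CPM. Nr4a1 and Nr4a2, orphan nuclear receptors, were highest in fibroblast-like cells, at 415 and 447 CPM for Nr4a1 and 411 and 532 CPM for Nr4a2, whereas macrophage-like cells held 76.2 and 90.2 CPM of the first and 42.9 and 58.6 CPM of the second. Nr4a3, the third member of that family, reached its highest level among the 4 classes in T cell-like cells, at 301 CPM in WT and 223 CPM in mgR. Atf3, a stress-induced repressor of inflammatory genes, was high in both macrophage-like (1072 and 870 CPM) and endothelium-like cells (987 and 906 CPM).

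Among the 4 classes, Nfkbia, Zfp36, Ier3, Nfkbiz and Socs3 were highest in macrophage-like cells in both libraries. The same held for Klf6 (990 and 781 CPM), Gadd45b (829 and 716.5 CPM) and Ier5 (483 and 379 CPM). It also held, at or under 180.0 CPM, for Dusp2, Egr2 and Fosl1. Nfkbia, the inhibitor that holds NF-κB in the cytoplasm, stood at 2489 and 2307 CPM there against 1052 and 1178 CPM in fibroblast-like cells. Zfp36, which destabilises cytokine mRNAs, stood at 1269 and 897 CPM against 275 and 256 CPM. Ier3, an anti-apoptotic early gene, reached 1681 and 1679 CPM, and Nfkbiz, a nuclear NF-κB cofactor, 665 and 699 CPM. Socs3, the feedback inhibitor of IL-6-type cytokine signalling, was read at 326 and 281 CPM in macrophage-like cells and at or under 93.0 CPM in each of the other 3 classes. Rgs1, a brake on chemokine receptor signalling, and Dusp2, a nuclear MAPK phosphatase, were lowest in fibroblast-like cells. Rgs1 reached 656 and 198 CPM in macrophage-like cells and 862 and 692 CPM in T cell-like cells, against 4.74 and 3.24 CPM in fibroblast-like cells, and Dusp2 reached 180.0 and 117 CPM in macrophage-like cells against 1.78 CPM in fibroblast-like cells of each library. The anti-proliferative Btg2 was highest in T cell-like cells, at 570 and 672 CPM. Btg1 stood at 662 and 865 CPM there and at 653 and 469 CPM in macrophage-like cells, so the classes were close in WT.

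**Figure D1:**
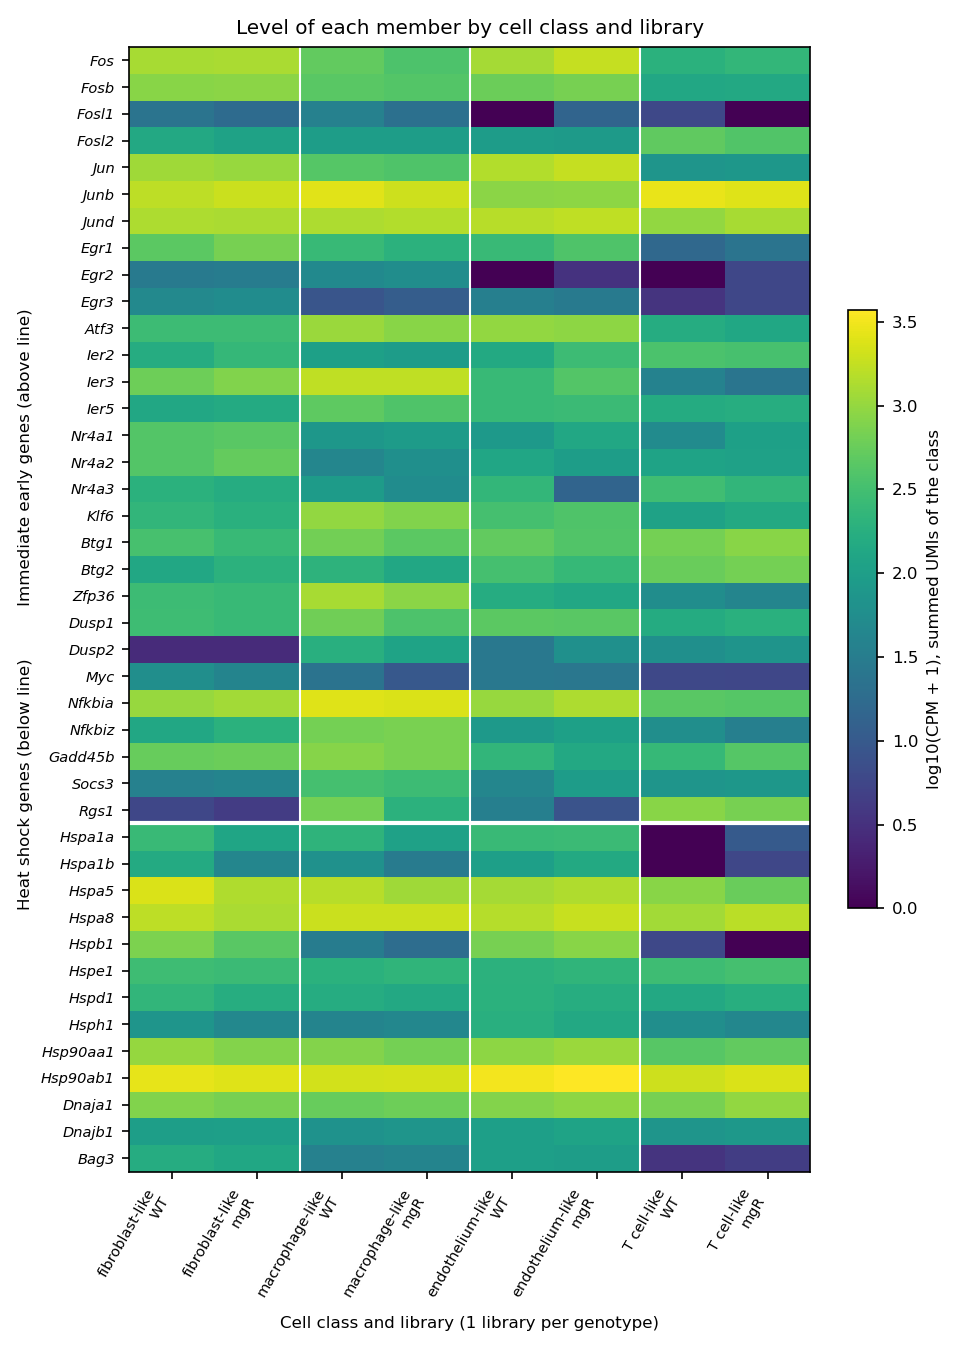
Level of each of the 42 members as log10(CPM + 1) of summed UMIs, by cell class and library (1 library per genotype), with immediate early genes above the white line and heat shock genes below it. Macrophage-like columns are brightest for Nfkbia, Ier3 and Zfp36, T cell-like columns for Junb, and Hspa1a, Hspa1b and Hspb1 are dark in T cell-like cells.

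Hsp90ab1, the housekeeping cytosolic HSP90, was the most abundant heat shock gene in every class, between 1990 and 3711 CPM, and Hspa8, the constitutive HSC70, was between 1198 and 1930 CPM over the 8 combinations of class and library. The summed level of the 13 genes was 10451 CPM in WT and 8004 CPM in mgR fibroblast-like cells, 7702 and 7200 CPM in macrophage-like cells, 9466 and 11004 CPM in endothelium-like cells and 5733 and 6589 CPM in T cell-like cells. Hspa5 (BiP), the HSP70 of the endoplasmic reticulum, was highest in fibroblast-like cells, at 2300 and 1415 CPM. The small heat shock protein gene Hspb1 split the classes most sharply. It stood at 736 and 452 CPM in fibroblast-like cells and 689 and 862 CPM in endothelium-like cells, but at 30.5 and 18.1 CPM in macrophage-like cells. T cell-like cells held 2 UMIs of it in WT and 0 in mgR, and a count of 0 allows up to 3.52 CPM there. The same held for the inducible HSP70 genes: Hspa1a and Hspa1b had 0 UMIs each in WT T cell-like cells, which allows up to 7.47 CPM, and 8 and 4 UMIs in mgR T cell-like cells. The co-chaperone Bag3, which links HSP70 to autophagy, followed this pattern too, with 160.5 and 134 CPM in fibroblast-like cells and 1 and 3 UMIs in T cell-like cells. Hspd1 and Hspe1, the mitochondrial chaperonin and its lid, were even, between 142 and 222 CPM and between 190 and 327 CPM.

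Fibroblast-like and endothelium-like cells differed more among themselves in immediate early than in heat shock transcripts, and the spread was widest in fibroblast-like cells. In WT fibroblast-like cells the 10th, 50th and 90th percentiles of summed immediate early UMIs were 21.2, 102 and 226 per 10000 UMIs of the cell. In mgR fibroblast-like cells they were 16.7, 126 and 251. The 90th percentile was thus 10.7 and 15 times the 10th, against 2.55 and 3.07 times in macrophage-like cells, where the percentiles were 107, 173 and 274 in WT and 78.1, 152 and 240 in mgR. For heat shock UMIs the same quotient lay between 2.34 and 3.52 in the 4 classes of both libraries, and in WT macrophage-like cells it was 3.03, above the 2.55 of the immediate early genes. With each cell thinned to 2000 UMIs and shallower cells left out (30 WT and 33 mgR fibroblast-like cells), the fibroblast percentiles were 20.0, 100 and 230.0 in WT and 15, 125 and 260.0 in mgR, so the wide spread was still seen at equal depth.

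Fibroblast-like cells with tendon-like transcripts had a lower median of immediate early UMIs. Cells with at least 2 UMIs over Fmod and Prg4, which encode matrix proteoglycans, and Scx, a tendon transcription factor, had a median of 75 immediate early UMIs per 10000 in WT (134 cells) and 62.1 in mgR (452 cells). Fibroblast-like cells with fewer had medians of 124 in WT (188 cells) and 165 in mgR (425 cells). The 10th percentiles were 19.1 with and 26.4 without these transcripts in WT and 13.7 and 32.1 in mgR, so low cells were found in both subsets. Median depth was higher in the cells with these transcripts, at 5991 against 4874 UMIs in WT and 7306 against 6340 in mgR. In both libraries the thinned immediate early sum also went down with the mitochondrial share of a cell, with a Spearman rho across cells of -0.37 in 292 WT and -0.50 in 844 mgR fibroblast-like cells, and its part in the spread was not tested. Immediate early and heat shock sums went together across fibroblast-like cells (rho 0.39 in WT and 0.54 in mgR) and hardly at all across macrophage-like cells (0.09 in 218 WT cells and 0.03 in 1507 mgR cells). Fos and Jun, which act as a dimer, had a rho of 0.55 and 0.60 in fibroblast-like cells and 0.41 and 0.30 in macrophage-like cells. These are descriptions over cells that share a library, and cells are not replicates.

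**Figure D2:**
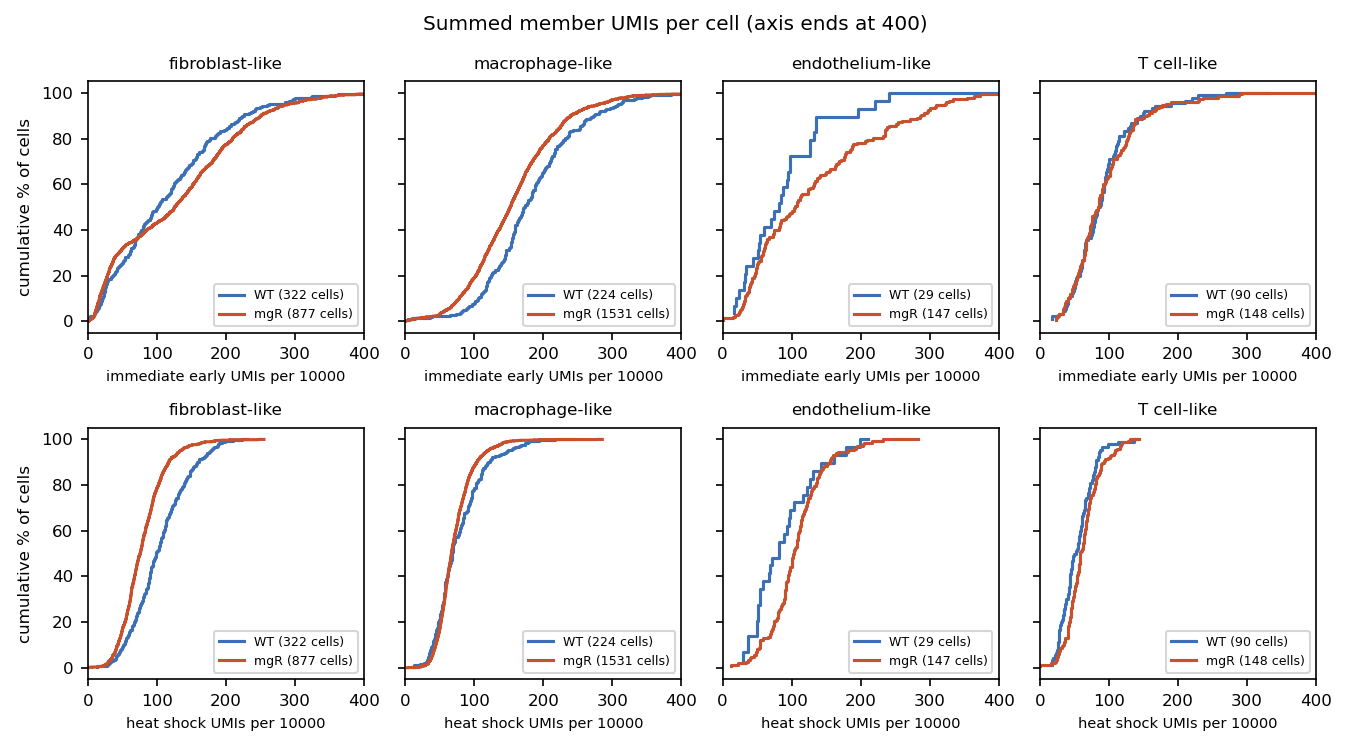
Cumulative percent of cells against summed immediate early UMIs (top row) or heat shock UMIs (bottom row) per 10000 UMIs of the cell, for the 4 classes in WT (blue) and mgR (orange), with the axis ending at 400. Fibroblast-like curves of immediate early UMIs are broad, from a 10th percentile of 21.2 in WT and 16.7 in mgR, while the fibroblast-like heat shock curve of mgR lies left of that of WT.

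In fibroblast-like cells, heat shock genes were lower in the mgR library and immediate early genes were not. A gene was called when its CPM differed by at least 1.5-fold between the libraries, its counting interval excluded 1 and it had at least 10 UMIs in all. Of the 13 heat shock genes, 0 were called higher and 5 were called lower, where 4.02% of 12580 genes were called higher and 5.62% lower. The median log2 ratio (mgR over WT) was -0.33 over the 13 genes and -0.03 over all genes tested, and 12 of the 13 were below 0. Hspa1b, an inducible HSP70, fell from 152 CPM in WT to 42.2 CPM in mgR (ratio 0.278, interval 0.233 to 0.332). Its neighbour Hspa1a fell from 263 to 123 CPM (0.469, 0.417 to 0.529). Hspb1 fell from 736 to 452 CPM (0.615, 0.575 to 0.658) and Hspa5 from 2300 to 1415 CPM (0.615, 0.593 to 0.639). Hsph1, the HSP110 nucleotide exchange factor that works with HSP70, fell from 71.1 to 46.0 CPM (0.648, 0.522 to 0.809). With cells thinned to 2000 UMIs, a UMI of Hspa1b was found in 16.1% (12.1% to 20.8%) of WT and 6.75% (5.16% to 8.66%) of mgR fibroblast-like cells, and of Hspa1a in 26.0% (21.1% to 31.5%) and 16.8% (14.4% to 19.5%). Without thinning these shares were 31.4% and 18.2%, and 38.5% and 33.6%. T cell-like cells, with a median of 4145 and 5062 UMIs against 5182 and 6727 in fibroblast-like cells, gave 0% and 0.685% for Hspa1b and 0% and 2.74% for Hspa1a after thinning.

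The other 8 heat shock genes were not called. Hspd1 had a ratio of 0.741 (0.658 to 0.836), Hsp90aa1, the inducible HSP90, 0.798 (0.755 to 0.843), Hspa8 0.809 (0.775 to 0.845), Bag3 0.836 (0.728 to 0.963), the HSP40 co-chaperone Dnaja1 0.871 (0.819 to 0.927) and Hsp90ab1 0.894 (0.865 to 0.924). The intervals of Hspe1 (0.933, 0.843 to 1.03) and of Dnajb1 (1.05, 0.883 to 1.25), an HSP40 usually induced together with Hspa1a, included 1. Fibroblast-like cells with and without the tendon-like transcripts gave the same direction: the heat shock sum stood at 10000 CPM in WT and 7330 CPM in mgR with them, and at 10854 and 8849 CPM without them.

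The heat shock calls in fibroblast-like cells differed in part between Xist-only and Y-only cells. Hspa1a and Hspa1b were called lower among Xist-only cells and among Y-only cells alike, with ratios of 0.275 (0.232 to 0.326) and 0.613 (0.486 to 0.773) for Hspa1a and 0.194 (0.149 to 0.253) and 0.399 (0.289 to 0.550) for Hspa1b. Hspa5 was called lower in Y-only cells alone (2789 CPM in WT and 1579 CPM in mgR, 0.566, 0.534 to 0.600). In Xist-only cells it stood at 1362 and 1381 CPM (1.01, 0.934 to 1.10), so the direction of Hspa5 turned there. Hsph1 was called in Xist-only cells (0.502, 0.349 to 0.739) and not in Y-only cells (0.852, 0.609 to 1.20). Hspb1, at 0.795 (0.696 to 0.912) and 0.709 (0.635 to 0.792), was under the 1.5-fold limit in each. With a limit of 2-fold, 2 heat shock genes were lower, where 2.06% of genes were. The within-kind comparisons rest on 81 WT and 522 mgR Xist-only cells and on 144 and 211 Y-only cells.

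The promoters of the 5 genes called lower over all fibroblast-like cells are shown as the regulatory sequence next to them, and that of Dusp1, described below, is given beside them. Of the 5, Hspa1a and Hspa1b alone were called in both Xist-only and Y-only cells. Each is the 250 bases before the RefSeq transcript start on GRCm38.p6, printed 5′ to 3′ on the strand of the gene. Capitals in the first 4 mark a GAA unit facing a TTC unit across 2 bases, in either order (GAANNTTC or TTCNNGAA), the repeat unit that heat shock factor 1 binds. Capitals in Hspa5 mark CCAAT boxes on either strand, and those in Dusp1 the cyclic AMP response element TGACGTCA. The regions are chr17:34972157-34972406 (minus strand) for Hspa1a, chr17:34959239-34959488 (minus) for Hspa1b, chr5:149636337-149636586 (minus) for Hsph1, chr5:135887669-135887918 (plus) for Hspb1, chr2:34771840-34772089 (plus) for Hspa5 and chr17:26508473-26508722 (minus) for Dusp1.
Hspa1a: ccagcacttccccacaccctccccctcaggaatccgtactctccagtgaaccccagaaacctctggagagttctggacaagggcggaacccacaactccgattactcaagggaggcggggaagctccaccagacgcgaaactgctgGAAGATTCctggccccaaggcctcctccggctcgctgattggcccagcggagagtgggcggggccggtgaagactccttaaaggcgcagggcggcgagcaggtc
Hspa1b: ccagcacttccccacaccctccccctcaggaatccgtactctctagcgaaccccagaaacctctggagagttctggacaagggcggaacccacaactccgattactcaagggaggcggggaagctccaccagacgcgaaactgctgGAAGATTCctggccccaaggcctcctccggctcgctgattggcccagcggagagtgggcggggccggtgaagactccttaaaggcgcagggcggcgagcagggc
Hsph1: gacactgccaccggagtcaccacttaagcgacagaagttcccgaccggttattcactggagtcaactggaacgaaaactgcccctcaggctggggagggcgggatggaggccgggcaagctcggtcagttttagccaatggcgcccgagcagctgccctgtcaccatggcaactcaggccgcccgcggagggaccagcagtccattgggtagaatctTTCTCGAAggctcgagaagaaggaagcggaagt
Hspb1: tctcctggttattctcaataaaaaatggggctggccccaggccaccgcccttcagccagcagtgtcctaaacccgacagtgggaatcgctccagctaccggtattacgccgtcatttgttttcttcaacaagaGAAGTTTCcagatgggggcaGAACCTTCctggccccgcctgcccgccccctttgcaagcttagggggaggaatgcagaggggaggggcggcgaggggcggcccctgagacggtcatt
Hspa5: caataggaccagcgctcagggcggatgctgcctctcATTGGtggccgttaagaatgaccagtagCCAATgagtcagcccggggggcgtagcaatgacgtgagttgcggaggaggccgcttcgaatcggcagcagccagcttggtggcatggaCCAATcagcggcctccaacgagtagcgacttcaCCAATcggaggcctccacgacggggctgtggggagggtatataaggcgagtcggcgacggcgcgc
Dusp1: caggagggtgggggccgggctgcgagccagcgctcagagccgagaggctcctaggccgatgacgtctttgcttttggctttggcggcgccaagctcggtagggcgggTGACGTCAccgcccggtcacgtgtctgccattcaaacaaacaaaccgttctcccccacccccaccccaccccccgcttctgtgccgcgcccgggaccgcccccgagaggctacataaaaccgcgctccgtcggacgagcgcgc

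The Hspa1a and Hspa1b promoters were 98.8% identical over these 250 bases, and each held the GAANNTTC match 104 bases before the start. The genes lie 9951 bases apart on chromosome 17, Hspa1a at 34969190 to 34972156 and Hspa1b at 34956436 to 34959238. Near-identical copies can lose or trade reads, but none of the 50-base words in the last 500 bases of the longest transcript of either gene occurred in any other annotated gene, so 3-prime reads that end there can be told apart. Such shared words made up 40.4% of that stretch of Hspa8, 16.0% for Hspb1 and 7.76% for Hsp90ab1, and the counts of these genes are less certain. Dusp1, Bag3, Dnaja1 and Hspa8, the last with 3 small nucleolar RNA genes, overlap other annotated genes on their own strand, where reads could be shared. Promoters were given for 32 of the 42 members, with 41 starts. A member counts below if any of its starts held the motif, whereas the shares of all promoters count each start, so the values are not on the same footing. GAANNTTC was found for 6 of 10 heat shock genes (Dnaja1, Hspa1a, Hspa1b, Hspb1, Hspd1, Hspe1) and 2 of 22 immediate early genes (Fosl2, Jun), against 6.69% of 32851 promoters. TTCNNGAA was found for 3 of 10 (Hspd1, Hspe1, Hsph1) and 1 of 22 (Egr2), against 7.17%. Hspd1 and Hspe1 are transcribed away from each other from overlapping starts, so their promoters share bases. The 4 CCAAT matches of Hspa5 start 214, 186, 98 and 65 bases before the transcript, and 33.8% of promoters held at least 1. The cyclic AMP response element was found for Dusp1 and Btg2, against 1.55% of promoters, the CArG box bound by serum response factor for Egr2 and Zfp36, against 1.47%, and TGANTCA, the AP-1 site, for Bag3 and Hspa5, against 6.75%. A match is a description of these letters and not evidence of binding.

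Over the whole class, immediate early genes of fibroblast-like cells differed little between the libraries. Of 29, 0 were called higher and 0 lower, and the summed ratio was 1.07 (1.05 to 1.09). Their median log2 ratio was 0.07, beside -0.03 over all genes. The counting interval lay above 1 for 10 genes and below 1 for 7, all within 1.5-fold. The share of all genes with such intervals is not given, so these 2 counts describe the list only. Egr1 was the farthest above, at 469 CPM in WT and 682 CPM in mgR (1.45, 1.35 to 1.57), followed by Ier2 (163 and 234 CPM, 1.43), Btg2 (139 and 196 CPM, 1.41), Nfkbiz (137 and 187 CPM, 1.37), Ier3 (599 and 789 CPM, 1.32) and Nr4a2 (411 and 532 CPM, 1.29). Myc, the growth regulator, was the farthest below at 56.3 and 40.4 CPM (0.718, 0.564 to 0.919), then Btg1 (339 and 257 CPM, 0.757), Fosl2 (140 and 112 CPM, 0.797) and Klf6 (223 and 182 CPM, 0.816). Fos, Fosb, Jun, Junb, Jund, Atf3, Nr4a1, Nr4a3, Ier5, Zfp36, Dusp1, Nfkbia and Gadd45b, all of at least 100 CPM in a library, had ratios from 0.861 to 1.15. The other 6 members, Fosl1, Egr2, Egr3, Socs3, Dusp2 and Rgs1, were at or under 53.7 CPM with intervals that included 1. The summed level was 12732 CPM in WT and 12675 CPM in mgR among Xist-only cells (0.996, 0.969 to 1.02) and 12420 and 14804 CPM among Y-only cells (1.19, 1.16 to 1.22). Dusp1 stood at 406 and 240 CPM in Xist-only cells (0.591, 0.505 to 0.695) and at 274 and 272 CPM in Y-only cells (0.994, 0.841 to 1.18). Ier3 passed the call rule as higher in Xist-only cells (1.625, 1.415 to 1.874) and in Y-only cells (1.512, 1.369 to 1.673). Xist-only cells also passed it for Egr3 (2.073) as higher and for Dusp1 as lower. Y-only cells passed it for Nfkbiz (2.031), Btg2 (1.960) and Ier2 (1.555) as higher and for Fosl1 (0.555) and Myc (0.528) as lower. Cells with fewer than 2 tendon-like UMIs had a summed level of 14294 and 17517 CPM (1.23, 1.20 to 1.25), and those with at least 2 had 9968 and 9611 CPM (0.964, 0.941 to 0.988), so the direction turned between these subsets. In cells with fewer, Btg2 (1.707), Ier2 (1.678), Egr2 (1.593), Ier3 (1.590), Egr1 (1.585) and Nfkbiz (1.514) passed the call rule as higher. In cells with at least 2, Fosl1 (0.394) passed it as lower. No share of all genes within these sets of cells is given beside these values.

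**Figure D3:**
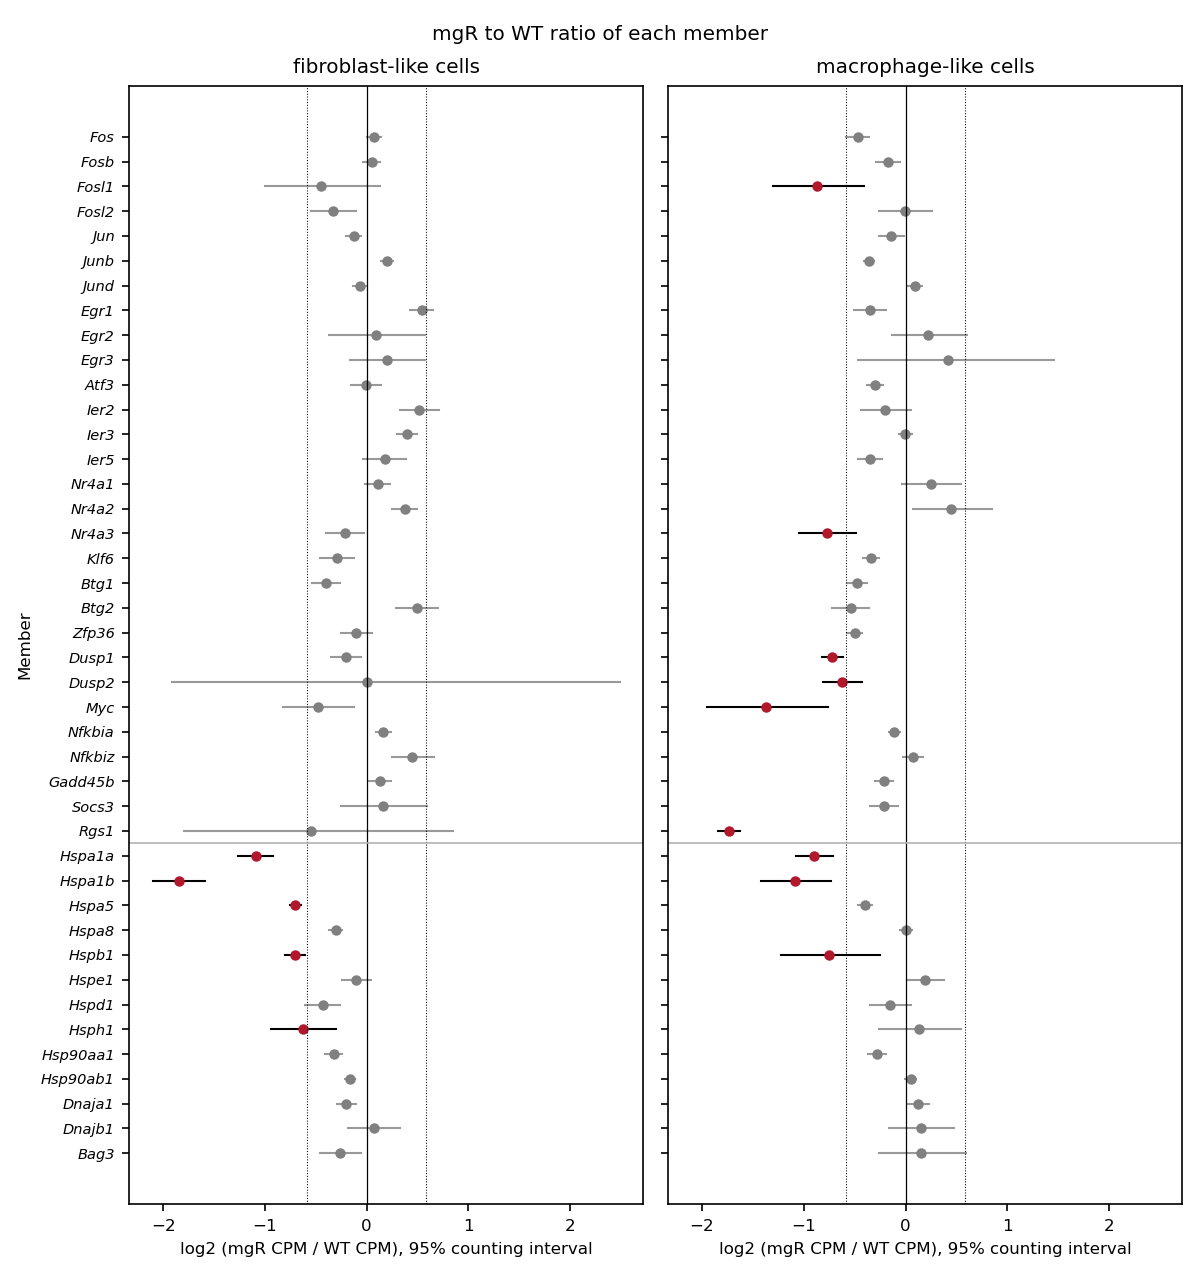
Ratio of mgR to WT CPM of each member on a log2 scale with its 95% counting interval, in fibroblast-like cells (left) and macrophage-like cells (right), immediate early genes above the grey line and heat shock genes below it. Red points with black lines are called lower (at least 1.5-fold, dotted lines, with an interval excluding 1): 5 heat shock genes in fibroblast-like cells, and 6 immediate early and 3 heat shock genes in macrophage-like cells.

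In macrophage-like cells immediate early genes were lower in the mgR library. Of 29, 6 were called lower and 0 higher, where 4.20% of 11862 genes were called lower and 7.01% higher. The median log2 ratio was -0.30 against 0.14 over all genes, 23 of 29 lay below 0, and the summed level was 18156 CPM in WT and 15148 CPM in mgR (0.834, 0.824 to 0.845). Rgs1 fell most in this class, from 656 to 198 CPM (0.301, 0.279 to 0.325). Myc fell from 22.2 to 8.55 CPM (0.386, 0.259 to 0.591), and Fosl1, an AP-1 subunit, from 36.0 to 19.7 CPM (0.548, 0.406 to 0.753). Nr4a3 fell from 90 to 52.7 CPM, on 130 WT and 703 mgR UMIs (0.586, 0.485 to 0.712). The MAPK phosphatases Dusp1 and Dusp2 fell from 620 to 376 CPM (0.606, 0.564 to 0.652) and from 180.0 to 117 CPM (0.649, 0.569 to 0.743). With a limit of 2-fold, 2 immediate early genes were lower, where 1.85% of genes were. After thinning, a UMI of Rgs1 was found in 36.7% (30.3% to 43.5%) of WT and 21.3% (19.3% to 23.5%) of mgR macrophage-like cells, and in 0.342% and 0.237% of fibroblast-like cells. Without thinning the macrophage shares were 49.1% and 37.4%, and thinning left out 6 WT and 24 mgR cells. Median depth was 6013 UMIs in WT and 8292 UMIs in mgR macrophage-like cells. The thinned immediate early sum went down with the total UMIs of a cell (rho -0.14 in 218 WT and -0.21 in 1507 mgR cells). The part of depth in the difference between the libraries was not tested.

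Most of the other immediate early genes of macrophage-like cells were below 1 without reaching 1.5-fold. Btg2 (0.687), Zfp36 (0.707), Btg1 (0.719), Fos (0.722), Junb (0.779), Egr1 (0.783), Ier5 (0.785), Klf6 (0.789), Atf3 (0.812), Socs3 (0.861), Gadd45b (0.864), Fosb (0.886), Jun (0.908) and Nfkbia (0.927) had intervals below 1, which makes 20 of 29 with the 6 called. At the depth of this class a small shift can put an interval below 1. The share of all genes with such intervals is not given, so the count describes the list only. Jund (1.07, 1.02 to 1.12) and Nr4a2 (42.9 and 58.6 CPM, 1.37, 1.05 to 1.80) had intervals above 1, while the intervals of Ier3 (0.999), Fosl2 (0.999), Nfkbiz (1.05), Ier2 (0.871), Nr4a1 (1.19), Egr2 (1.17) and Egr3 (1.34) included 1. Scaling to the median gene moves every log2 ratio of this class by -0.13, and that of the immediate early sum from -0.26 to -0.39.

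Both kinds of macrophage-like cells showed the lower immediate early sum, with 18851 and 15383 CPM in Xist-only cells (0.816, 0.799 to 0.834) and 18535 and 14403 CPM in Y-only cells (0.777, 0.761 to 0.793). Of the 6 genes called over the whole class, Rgs1, Dusp1 and Nr4a3 were called lower in each kind. Fosl1, Dusp2 and Myc were called in Xist-only cells and not in Y-only cells, where their ratios were 0.618, 0.787 and 0.571. Fos, not called over the whole class, passed the call rule as lower in Xist-only (0.580, 0.516 to 0.653) and Y-only cells (0.624, 0.546 to 0.714). Btg2 (0.5675), Atf3 (0.638) and Ier5 (0.648) passed it as lower in Xist-only cells alone. Egr1 (0.617), Zfp36 (0.626) and Btg1 (0.644) did so in Y-only cells alone. The mix of macrophages differed between the libraries: 40.2% of WT and 66.2% of mgR macrophage-like cells had at least 2 UMIs over Lyve1, Folr2 and Cd163, genes of resident macrophages. Rgs1 was lower in mgR in cells with them (142 and 87.9 CPM, 0.619, 0.495 to 0.784) and in cells with fewer, called without them here (1021 and 437 CPM, 0.428, 0.395 to 0.465). Dusp2 was not called in either, at 56.8 and 68.1 CPM with them (1.20, 0.849 to 1.75) and 267 and 223 CPM without them (0.836, 0.722 to 0.971). Nr4a3 (0.880 and 0.706) and Dusp1 (0.674 and 0.722) were under the 1.5-fold limit in each subset. Fosl1 passed the call rule as lower in both, at 0.564 (0.375 to 0.883) with them and 0.303 (0.180 to 0.519) without them, on 26 WT UMIs in each. Myc was at 0.281 (0.155 to 0.544) with them and 0.606 (0.350 to 1.10) without. Of the immediate early genes not called over the whole class, Fos (0.614), Btg2 (0.516) and Zfp36 (0.623) passed as lower in cells with them. Nr4a2 (1.550) passed as higher in those cells, and Egr2 (1.661) as higher in cells without them. No share of all genes within these sets of cells is given beside these values.

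Heat shock genes of macrophage-like cells showed no common shift. Of 13, 0 were called higher and 3 lower, where 7.01% of all genes were called higher and 4.20% lower. The median log2 ratio was 0.00, beside 0.14 over all genes, and the summed level was 7702 and 7200 CPM (0.935, 0.917 to 0.954). Hspa1b fell from 62.3 to 29.4 CPM (0.472, 0.374 to 0.600), Hspa1a from 207 to 111 CPM (0.536, 0.473 to 0.609) and Hspb1 from 30.5 to 18.1 CPM (0.593, 0.429 to 0.838). None of the 3 was called in Y-only cells, and Hspb1 was not called in Xist-only cells. In WT, 10 of the 224 cells carried 47.8% of the Hspa1a UMIs, and the share of cells with an Hspa1a UMI after thinning was 17.0% (12.2% to 22.6%) in WT and 17.9% (16.0% to 19.9%) in mgR. For Hspb1, 17 of the 44 WT UMIs were in 1 cell, and without the 10 cells of most UMIs in each library its log2 ratio was 0.81. Those 10 are a larger part of the 224 WT cells than of the 1531 mgR cells, so this value cannot show a reversal. Hspa1a and Hspa1b were lower in mgR among Xist-only cells, with ratios of 0.273 (0.233 to 0.322) and 0.212 (0.158 to 0.289). Among Y-only cells their ratios were 1.12 (0.852 to 1.49) and 1.30 (0.828 to 2.13). The other 10 had ratios from 0.758 for Hspa5 to 1.14 for Hspe1. Of these, Dnaja1 passed the call rule as higher in Y-only cells (1.558, 1.370 to 1.777) and not in Xist-only cells (0.842, 0.753 to 0.944).

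For the inducible HSP70 genes, both WT sets lay above both mgR sets in fibroblast-like cells, whereas in macrophage-like cells the WT Xist-only set was the highest of the 4. In fibroblast-like cells Hspa1a was at 432 CPM in WT Xist-only cells, 181 CPM in WT Y-only cells, 119 CPM in mgR Xist-only cells and 111 CPM in mgR Y-only cells. In macrophage-like cells the same 4 values were 392, 98.2, 107 and 110.0 CPM. Hspa1b stood at 203, 120, 39.3 and 47.9 CPM in fibroblast-like cells and at 120, 35.3, 25.4 and 45.9 CPM in macrophage-like cells, in the same order. For Hspa1a in macrophage-like cells the 3 sets other than WT Xist-only did not differ beyond their counting intervals. Rgs1 in macrophage-like cells was at 838, 473, 189 and 187 CPM, so that both WT sets lay above both mgR sets. The cells are not tied to animals, and animal and genotype cannot be told apart in these values.

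**Figure D4:**
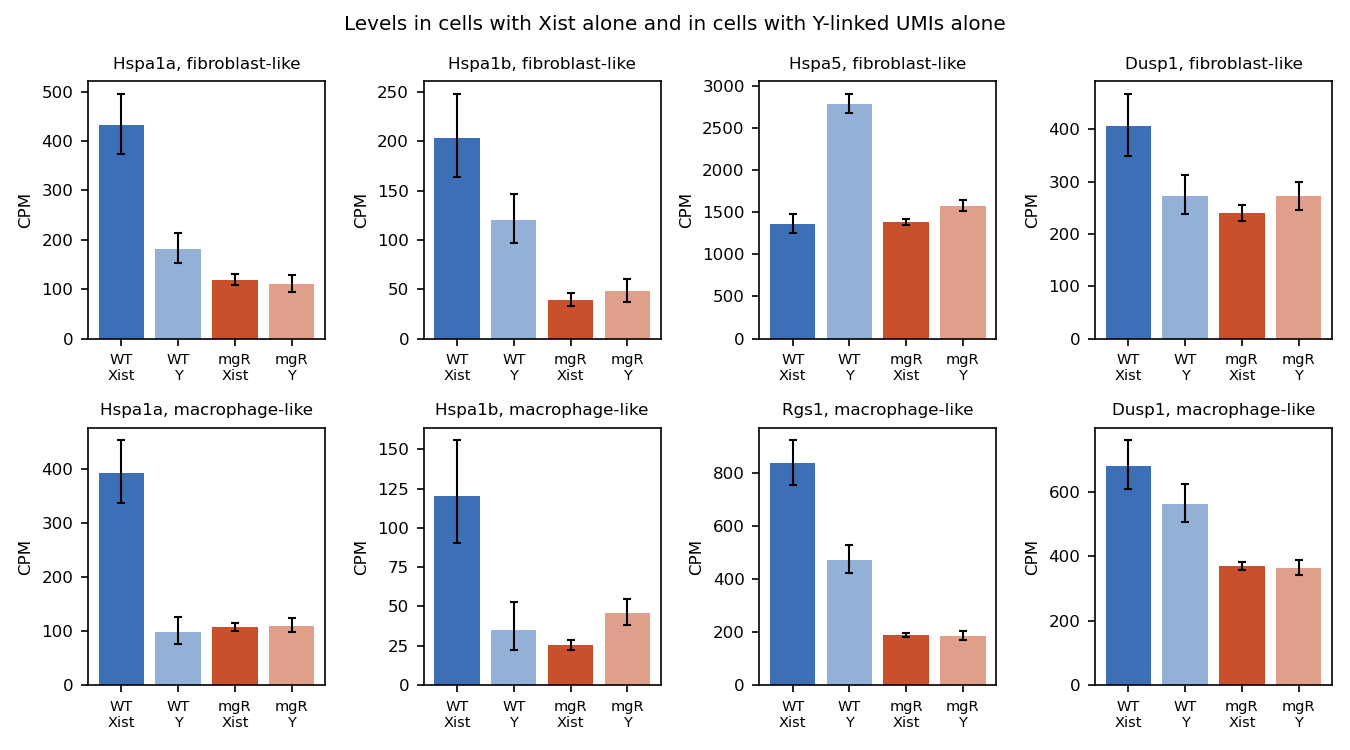
CPM with exact Poisson 95% intervals in Xist-only (dark bars) and Y-only cells (pale bars) of WT (blue) and mgR (orange) for 4 members in fibroblast-like cells (top) and 4 in macrophage-like cells (bottom); every axis starts at 0. Hspa1a is highest in WT Xist cells in both classes (432 and 392 CPM), Hspa5 in WT Y cells, and Rgs1 is higher in both WT bars than in both mgR bars.

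Endothelium-like cells allowed a coarse comparison because the WT library held 29 of them. The class is a part of the 60 WT and 478 mgR cells that met the endothelium criterion, and its values hold for that part. Of 28 immediate early genes with enough UMIs, 2 were called higher and 1 lower, where 2.78% of 8339 genes were called higher and 3.96% lower. Ier2 rose from 145 to 278 CPM (1.92, 1.18 to 3.36) and Ier3 from 255 to 406 CPM (1.59, 1.10 to 2.40). Nr4a3 was the gene called lower, at 230 CPM in WT and 13 CPM in mgR (0.0564), but all 27 of its WT UMIs came from 1 cell. At 2-fold 0 genes were higher, where 1.74% of all were, and of genes with at least 100 UMIs 0 were lower, where 3.75% of all such genes were. Fos (1208 and 1783 CPM, 1.48, 1.24 to 1.77), Jun (1437 and 1815 CPM, 1.26, 1.08 to 1.49), Egr1 (264 and 383 CPM, 1.45) and Nfkbia (1029 and 1328 CPM, 1.29, 1.07 to 1.57) had intervals above 1 and were not called. Fosb, Junb, Jund, Atf3, Ier5, Nr4a1, Nr4a2, Klf6, Btg1, Btg2, Zfp36, Dusp1, Nfkbiz and Gadd45b, all of at least 100 CPM in a library, had ratios from 0.634 for Gadd45b to 1.61 for Nr4a1 with intervals that included 1. The other 8 members, Fosl1, Fosl2, Egr2, Egr3, Dusp2, Myc, Socs3 and Rgs1, were at or under 93.6 CPM. Within Xist-only cells (9 in WT) Ier3 was still called and Ier2 was not, and within Y-only cells (7 in WT) neither was. Nr4a3 (0.0187) was again lower in Xist-only cells, where Egr1 (2.353) passed the call rule as higher. In Y-only cells Fos (2.985), Fosb (2.274) and Junb (2.265) passed it as higher. No share of all genes within these few cells is given. Of the 13 heat shock genes 0 were called in either direction over the whole class, and the summed level was 9466 and 11004 CPM (1.16, 1.09 to 1.24). Hspb1 (3.396, 1.827 to 7.135) passed the call rule as higher in Xist-only cells. In Y-only cells Hspa1a (5.253, 1.384 to 44.50), Dnaja1 (3.221), Hspa8 (2.168) and Hspa5 (1.632) did. Hspa8 (1.29, 1.10 to 1.51) and Hsp90ab1 (1.15, 1.03 to 1.28) had intervals above 1. Hspa1a, at 264 and 270.0 CPM (1.02, 0.701 to 1.54), and Hspb1, at 689 and 862 CPM (1.25, 0.994 to 1.59), had intervals that included 1, as did the other 9, with ratios from 0.785 for Hsph1 to 1.45 for Hspa1b. A further 28 WT and 301 mgR cells met both the fibroblast and the endothelium criterion, a group taken up after the data were seen, and their heat shock sum was 10991 and 11332 CPM (1.03, 0.982 to 1.08). The genes that led this group against the other kept cells were Hamp, H19, Emcn and Vwf (68.9- to 41.3-fold). Whether these cells are endothelium was not tested. In this group Atf3 rose from 378 to 761 CPM, Nr4a3 fell from 62.0 to 26.1 CPM and Hspa1b from 192 to 102 CPM, where 2.38% of 10134 genes were called higher and 3.98% lower.

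In T cell-like cells 25 immediate early and 9 heat shock genes had enough UMIs. Nr4a1, induced by T cell receptor signals, rose from 52.3 to 106 CPM (2.02, 1.24 to 3.42), on 21 and 90 UMIs. Gadd45b, a stress and MAPK regulator, rose from 247 to 418 CPM (1.69, 1.35 to 2.14). These 2 were the genes called higher and 0 were called lower, where 4.11% of 7935 genes were called higher and 6.30% lower. At 2-fold 1 was higher, where 2.82% of genes were. Fos, Fosb, Fosl2, Junb, Jund, Atf3, Ier2, Ier5, Nr4a2, Nr4a3, Klf6, Btg1, Btg2, Dusp1, Nfkbia and Rgs1, of at least 100 CPM in a library, had ratios from 0.739 for Nr4a3 to 1.31 for Jund. Jun, Egr1, Ier3, Zfp36, Dusp2, Nfkbiz and Socs3 were at or under 77.4 CPM with intervals that included 1, and Fosl1, Egr2, Egr3 and Myc had too few UMIs. Both calls were made in Xist-only cells and not in Y-only cells, where the ratio was 1.13 for each. Of the 9 heat shock genes 0 were called. Dnaja1 was the highest at 695 and 970 CPM (1.40, 1.22 to 1.60), then Hspa8 (1198 and 1589 CPM, 1.33, 1.20 to 1.48), and Hspa5 the lowest at 849 and 572 CPM (0.674, 0.586 to 0.776). Hspe1, Hspd1, Hsp90aa1 and Hsp90ab1 lay between 1.13 and 1.21. The summed ratio was 1.02 (0.977 to 1.06) for immediate early and 1.15 (1.10 to 1.21) for heat shock genes. Haemoglobin transcripts took 13557 CPM of the WT and 2419 CPM of the mgR T cell-like cells, and their part in these values was not tested.

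Cells that met no class criterion, 177 in WT and 374 in mgR, were not given a name. Their Nr4a3 level, 707 CPM in WT and 581 CPM in mgR, was above that of each of the 4 classes, as was that of Btg1, at 1467 and 1461 CPM. In these cells Hspe1 rose from 204 to 329 CPM (1.61, 1.35 to 1.93), Hspb1 fell from 54.6 to 24.4 CPM (0.447, 0.296 to 0.682) and Hspa1b fell from 25.2 to 6.01 CPM (0.238, 0.114 to 0.495), where 3.89% of 10150 genes were called higher and 10.3% lower. Of their 29 immediate early genes 0 were called higher and 0 lower. Markers of several other cell types differed between the libraries in these cells: the 4 melanocyte markers summed to 2674 CPM in WT and 402 CPM in mgR, the 4 neutrophil markers to 12656 and 4608 CPM, the 4 B cell markers to 150 and 598 CPM and the 4 haemoglobin genes to 9333 and 13935 CPM. Their part in these values was not tested.

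Related pathways were counted from lists of genes outside the 42 members, over all cells of a class and not within Xist-only and Y-only cells. In fibroblast-like cells, of 20 endoplasmic reticulum chaperones and unfolded protein response genes, 0 were called higher and 5 lower, 18 lay below 0 and the median log2 ratio was -0.34, beside -0.33 for the heat shock genes and -0.03 over all genes, of which 4.02% were called higher and 5.62% lower. The lowest were Hyou1, a chaperone of that compartment (69.9 to 31.0 CPM, 0.443, 0.350 to 0.562), and Pdia4, a disulphide isomerase (183 to 102 CPM, 0.559, 0.487 to 0.643). Hspa5, a member from the same compartment, was lower in Y-only cells (0.566) and not in Xist-only cells (1.01), and whether this list divides in that way was not tested. Of 36 other cytosolic chaperones, 1 was called higher and 1 lower, with a median of -0.06. Of 8 mitochondrial chaperones 0 were called in either direction. In macrophage-like cells, of 40 other early response genes, 1 was called higher and 10 lower, with a median of -0.21, where all genes had a median of 0.14 and 7.01% were called higher and 4.20% lower. The kinase gene Sik1 rose there from 6.92 to 16.3 CPM (2.35, 1.25 to 4.97). The matrix signalling gene Ccn2 fell from 2.77 to 0.525 CPM (0.190, 0.0482 to 0.883), on counts close to the limit of 10 UMIs, so its ratio is uncertain. Errfi1, an inhibitor of EGF receptor signalling that is on both lists, fell from 207 to 96.9 CPM (0.468, 0.412 to 0.533). Of 13 MAPK feedback genes with enough UMIs in that class, 0 were called higher and 2 lower, Errfi1 and the ERK phosphatase Dusp5 (110 to 31.0 CPM, 0.281, 0.234 to 0.340). In fibroblast-like cells 3 of 15 such genes were called lower and 0 higher, Dusp10 (0.444) and Spry2 (0.548) being the lowest. In T cell-like cells 5 of 19 endoplasmic reticulum genes were called lower and 0 higher, with a median of -0.40, where all genes had a median of -0.09 and 4.11% were called higher and 6.30% lower.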

How the data were processed

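The deposited matrices hold counts: UMIs per gene and cell barcode, made by the authors from 10x Genomics 3-prime version 3 libraries, with Cell Ranger 7.1.0 and mm10 named in the submitters' processing notes. The treatment of intronic reads is not given in the sources used here. All 42 symbols were found in both matrices, and the row of a symbol was taken by its gene identifier. The members, classes and gene lists were chosen with earlier results of these data known.

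Depth was 5381844 UMIs in 1104 WT barcodes and 28215539 UMIs in 3802 mgR barcodes. Class criteria were at least 10 UMIs over the 3 fibroblast or macrophage genes and at least 2 over the endothelium or T cell genes, and 33 WT and 361 mgR cells meeting several criteria were left out of the classes. Scrublet marked 7 WT and 51 mgR cells as doublets, which were left in and removed in an alternative. UMIs were summed per class and library. CPM carry exact Poisson, shares exact Clopper-Pearson and ratios exact conditional binomial 95% intervals (Python 3.11.15, numpy 2.4.6, scipy 1.17.1, scanpy 1.11.5), tested on simulated data. UMIs remove duplicate reads, but the intervals cover counting error only. A count of 0 was taken to allow 3 counts.

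All members are accounted for; in each class called members are named with both CPM, and of the others those with at least 100 CPM in a library by ratio or range. From a related list at most 4 called genes are named, from the 2 highest and 2 lowest ratios. Gene positions are from GENCODE vM21 by identifier and promoters from RefSeq (GRCm38.p6), 41 starts of 32 members. Alternatives were the class criteria as written, a mitochondrial limit of 5%, another scaling, equal weight of cells, thinning, removal of doublets or of the 10 cells with most UMIs, Xist-only and Y-only cells, subsets of classes, and other count and fold limits. The CPM within Xist-only and Y-only cells, and the cells meeting both the fibroblast and the endothelium criterion, were added after seeing the data.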

Additional observations from a re-analysis of the deposited data

Results flagged for a closer look

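Among the 42 members in the 4 classes, 8 pairs of member and class had a ratio that turned between Xist-only and Y-only cells. It pointed one way in Xist-only cells and the other way in Y-only cells, with counting intervals that excluded 1 in each. The difference between the kinds of cell was not tested, and the labels do not tie cells to animals. The share of all genes that turned in this way is not given, so nothing here shows that such turns are particular to the members. In fibroblast-like cells the log2 ratio (mgR over WT) of Fos was -0.41 in Xist-only and 0.16 in Y-only cells, that of Zfp36 -0.41 and 0.33, and that of the co-chaperone gene Dnajb1 -0.45 and 0.56. In macrophage-like cells Ier3 stood at 0.14 and -0.29, Hspa8 at -0.19 and 0.20, Hspd1 at -0.51 and 0.36 and Dnaja1 at -0.25 and 0.64. In endothelium-like cells Junb stood at -0.52 and 1.18, on 9 and 7 WT cells.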

How the results depend on the processing

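Of the 19 called member values of the 4 classes, all 19 kept their direction with the class criteria as written, a mitochondrial limit of 5%, another scaling, equal weight of cells, thinning, or without doublets, as did 16 of 17 without the 10 cells with most UMIs, 17 of 19 in Xist-only and 16 of 18 in Y-only cells. The cause of the moves below was not tested. Leaving out 10 cells per library removes a larger part of the WT than of the mgR cells in every class, and 10 of the 29 WT endothelium-like cells. Values without the 10 cells are therefore not balanced between the libraries. All values are log2 ratios, mgR over WT. For the immediate early sum of fibroblast-like cells (0.10 as reported), the value was 0.13 scaled to the median gene, 0.14 as a mean over cells, 0.13 thinned, 0.16 without the 10 cells, -0.0065 in Xist-only and 0.25 in Y-only cells. For macrophage-like cells (-0.26) these were -0.39, -0.22, -0.23, -0.23, -0.29 and -0.36. For endothelium-like cells (0.18) they were 0.099 scaled, 0.37 as a mean, 0.89 without the 10 cells, 0.048 in Xist-only and 0.44 in Y-only cells. For T cell-like cells (0.02) the sum was 0.11 with the criteria as written, 0.10 without the 10 cells and 0.12 in Xist-only cells. The heat shock sum of fibroblast-like cells (-0.38) was -0.26 as written, -0.35 scaled, -0.36 without the 10 cells, -0.22 in Xist-only and -0.35 in Y-only cells. That of macrophage-like cells (-0.10) was -0.23 scaled, -0.037 without the 10 cells, -0.24 in Xist-only and 0.11 in Y-only cells. That of endothelium-like cells (0.22) was 0.090 as written, 0.76 without the 10 cells, 0.44 in Xist-only and 0.54 in Y-only cells, and that of T cell-like cells (0.20) was 0.30 without the 10 cells, 0.0036 in Xist-only and 0.33 in Y-only cells. Single members changed sign as follows: Hspa5 in fibroblast-like cells at 0.020 in Xist-only cells, Hspa1a and Hspa1b in macrophage-like cells at 0.16 and 0.38 in Y-only cells, Hspb1 in macrophage-like cells at 0.81 without the 10 cells and 1.32 in Xist-only cells, and Dusp2 at 0.26 in macrophage-like cells with at least 2 UMIs over Lyve1, Folr2 and Cd163. At 2-fold, 2 heat shock genes were lower in fibroblast-like cells, 2 immediate early and 1 heat shock gene in macrophage-like cells, and 0 and 1 immediate early genes were higher in endothelium-like and T cell-like cells; with at least 100 UMIs, 0 were lower in endothelium-like cells. No paired analysis was possible because there was 1 library per genotype. Depth limits the endothelium-like and T cell-like classes most, and no interval here covers differences between animals.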

Other observations

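Atf3 and Fos, both AP-1-related, had a rank correlation across thinned endothelium-like cells of 0.63 in 138 mgR cells and 0.48 in 21 WT cells, as a description over cells of 1 library each.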
